A study of Homo sapiens with 6 samples.

Results

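Parental HCT116 cells, an established human colorectal carcinoma line, were compared after transfection with a control siRNA and without transfection. The comparison rests on 2 of the 6 RNA-seq libraries of the series. Genes entered it when their FPKM (fragments per kilobase of transcript, scaled to the mapped fragments of the library) was 1 or more in either library. That left 11631 of 19942 gene symbols. Each ratio is the log2 of control siRNA over untransfected after 1 was added to each FPKM, so that 1 is a 2-fold difference and low genes are understated. The labels call the parental cells wild-type. The other 4 libraries are the parental cells with an siRNA against EHMT2 and cells with acquired resistance to 5-fluorouracil, a pyrimidine drug, in the same 3 states. EHMT2 encodes the histone H3K9 methyltransferase G9a, and the series concerns its part in resistance. Every group held 1 library, so no difference here can be checked against replicates and none has a p-value. The sources used here do not give the reagent, the siRNA sequence, the dose or the time. The labels of the libraries called untransfected here name no siRNA or mock treatment, and siRNA, reagent, culture and library batch cannot be told apart in this comparison.

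A control siRNA is a short RNA duplex chosen to match no transcript. It is carried into cells with a transfection reagent, usually a cationic lipid, taken up by endocytosis and loaded by the RNA interference machinery onto an Argonaute protein. Double-stranded RNA can be read by innate sensors, which switch on interferon-stimulated genes. Handling, fresh serum, cell density and nutrient supply act on other programmes: immediate early genes, which are transcribed within minutes of a growth factor or stress signal without new protein synthesis; heat shock genes, driven by HSF1; amino acid stress genes, driven by ATF4; and the genes of the cell cycle.

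The 6 libraries had 11240 to 11722 genes at 1 FPKM or more, and their FPKM summed to between 360695 and 446143. The parental untransfected library had the highest sum, 446143, against 392758 with control siRNA. Read depth is unknown, because the deposited values are FPKM. Epithelial identity fitted the label in part: 11 of 15 markers were measured in both parental libraries, among them EPCAM at 140 and 102 FPKM and KRT8 at 625 and 754 FPKM, untransfected and control siRNA in that order. VIL1, CDX1, LGALS4 and CDH17 were listed at 0. Of the 11, 4 were at least 2-fold lower with control siRNA (36.4%, against 2.08% of all genes), 0 were higher and 7 had ratios below 0. The 4 were CLDN7, CLDN4, CDH1 and ELF3, an epithelial transcription factor at 23.7 and 10.3 FPKM. Of 20 markers of fibroblasts, endothelium, blood, liver and neurons, 17 were at 0 in both parental libraries, and the 20 summed to 6.02 FPKM untransfected and 6.89 with control siRNA. EHMT2 itself stood at 19.8 FPKM untransfected, 31.7 with control siRNA and 8.58 with EHMT2 siRNA.

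Adult globin messages separated the transfected from the untransfected libraries in both lines. HBB, the beta chain of adult haemoglobin, was listed at 0 in both untransfected libraries and between 26.4 and 32.2 FPKM in the 4 siRNA libraries. HBA2, an alpha chain, reached at most 1.10 FPKM untransfected and lay between 20.1 and 26.4 FPKM in the siRNA libraries. HBA1, a near-identical copy whose reads may be divided with HBA2, reached at most 0.859 and lay between 16.8 and 23.5 FPKM. These were the 3 highest ratios of the parental comparison, with log2 ratios of 3.72 for HBA1 and 3.71 for HBA2. HBB, at 31.1 FPKM with control siRNA, gets no fold because it was listed at 0 without transfection. Of 23 erythroid markers, a list written after the globin values were seen, 13 were at 0 in all 6 libraries, including ALAS2, which makes red cell haem, and the membrane protein SLC4A1. In resistant cells, 5 of 7 measured markers were 2-fold higher with control siRNA (against 4.31% of all genes) and 1 lower. These 5 include the 3 adult globins. The 20 markers other than these globins summed to between 74.9 FPKM in resistant untransfected and 125 in resistant control siRNA cells. In the parental cells they summed to 95.5 FPKM untransfected and 84.2 with control siRNA. The embryonic globin HBE1 stood at 53.3 FPKM untransfected and 47.2 with control siRNA. The deposited tables also differ in form along the same line: the 4 siRNA tables list genes in the order of their identifiers and the 2 untransfected tables do not. Whether the globin signal and the differences described next have a common origin was not tested.

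**Figure D1:**
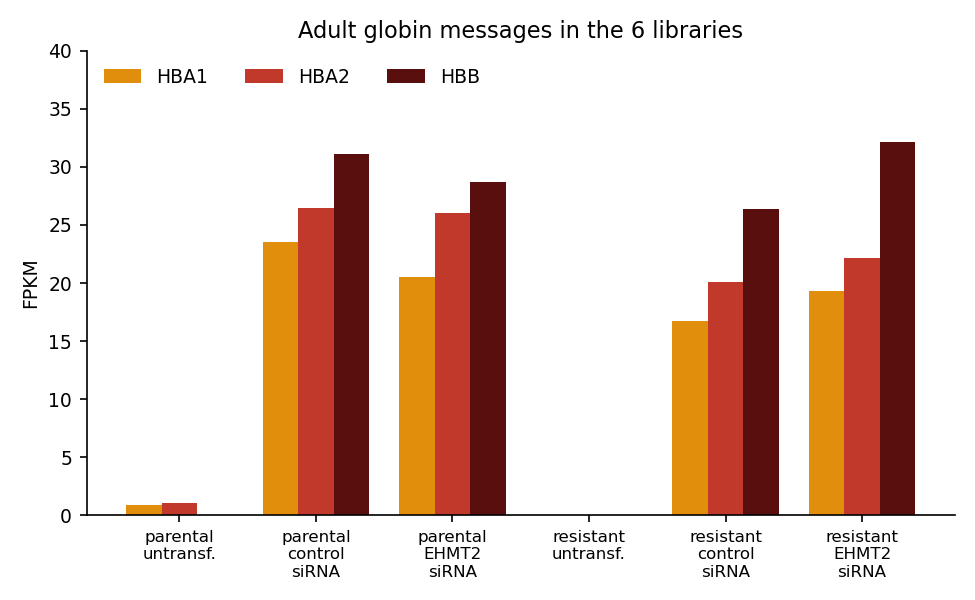
FPKM of the adult globin genes HBA1, HBA2 and HBB in each of the 6 libraries, 1 bar per gene and library, on a linear axis from 0. All 4 siRNA libraries stand between 16.8 and 32.2 FPKM, and no untransfected library exceeds 1.10 FPKM.

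Control siRNA was accompanied by a small set of large differences, most of them toward lower levels. At least 2-fold higher were 111 of the 11631 genes, or 0.954%, and at least 2-fold lower were 242, or 2.08%. At 4-fold the numbers were 7 and 27. Within 1.5-fold lay 84.8% of genes, and the median log2 ratio was 0.04 (interquartile range -0.24 to 0.29). Ratios were above 0 for 6267 genes and below 0 for 5364. List counts above or below 0 in the parental comparison are to be read against these. The excess of 2-fold lower genes depended on scaling. As deposited, 31.4% of the 2-fold differences were toward higher levels, but 60.4% were when both libraries were brought to the same FPKM sum, which moved the median of all genes from 0.04 to 0.20. Immediate early and ATF4 target genes supplied 18 and 16 of the 242 lower genes, ATF3 standing in both lists, and heat shock genes 9 of the 111 higher genes. In no list stood 84 of the higher and 171 of the lower genes.

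**Figure D2:**
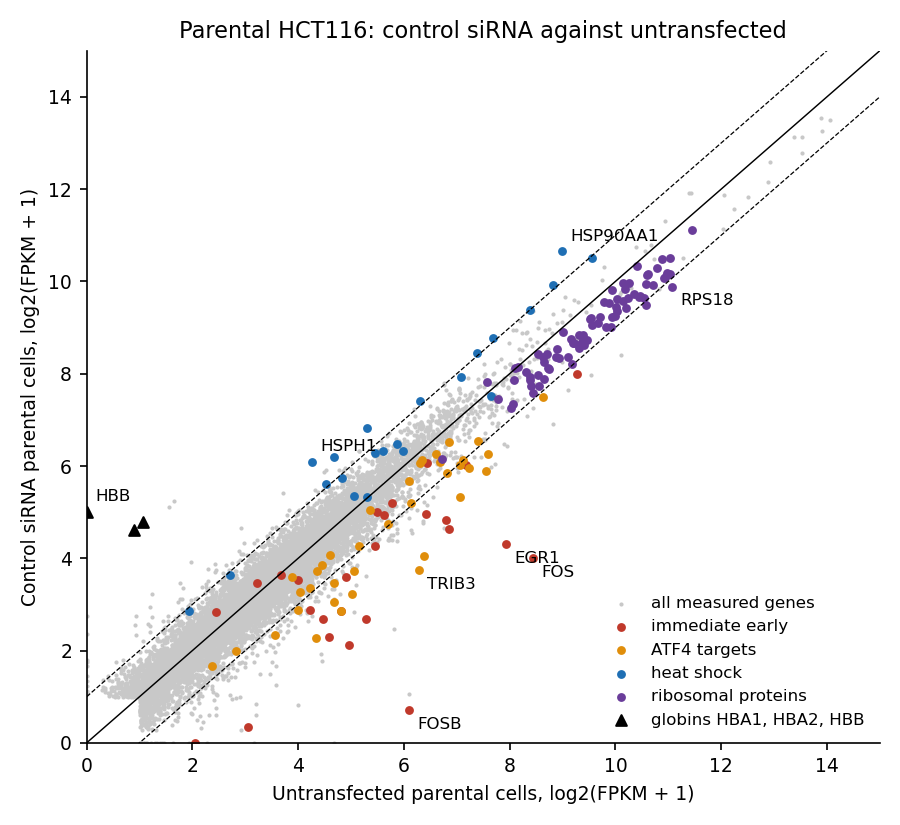
Each point is 1 of the 11631 genes measured in parental cells, placed by log2(FPKM + 1) without transfection (horizontal) and with control siRNA (vertical); the solid line marks equal levels and the dashed lines 2-fold differences. ATF4 target genes and all but 2 of the immediate early genes lie below the diagonal, adult globins and 21 of 22 heat shock genes above it, and most ribosomal proteins just below it.

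Immediate early genes were the most affected group. Of 26 measured members, 18 were at least 2-fold lower with control siRNA (69.2%, against 2.08% of all genes), 0 were 2-fold higher, and 24 had a ratio below 0. Their median log2 ratio was -1.40, against 0.04 for all genes. The Fos family, whose proteins pair with Jun proteins to form the AP-1 transcription factor, held the extremes. FOSB stood at 67.5 FPKM untransfected, 0.633 with control siRNA and 1.22 with EHMT2 siRNA, and FOS at 345, 14.99 and 4.71 FPKM. Their log2 ratios for control siRNA were -5.39 and -4.43. FOSL1 and FOSL2, Fos relatives that accumulate later, stood apart: FOSL1 was at 86.0 and 65.5 FPKM, and FOSL2 at 4.43 and 6.17 FPKM, both within 2-fold.

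The Jun genes were lower by a smaller factor. JUN was at 38.1 FPKM untransfected, 5.40 with control siRNA and 21.8 with EHMT2 siRNA, a log2 ratio of -2.61 for control siRNA. JUNB was at 111 FPKM untransfected and 27.4 with control siRNA, and JUND, a more constant family member, at 48.2 and 29.9 FPKM. The zinc finger factors of the EGR family followed the Fos genes. EGR1 was at 243 FPKM untransfected, 18.8 with control siRNA and 12.7 with EHMT2 siRNA, and EGR2 at 7.33, 0.277 and 0 FPKM. Their log2 ratios were -3.63 and -2.71. EGR3 was at 3.13 FPKM untransfected and listed at 0 with control siRNA. MYC, the growth-promoting factor, was at 143 FPKM untransfected, 64.1 with control siRNA and 25.1 with EHMT2 siRNA, a log2 ratio of -1.15.

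Negative regulators of the same response were lower as well. DUSP1, a phosphatase that switches off MAP kinases, was at 30.1 FPKM untransfected and 3.38 with control siRNA, and ZFP36, which promotes the decay of unstable messages, at 115 and 24.0 FPKM. IER3 was at 617 and 255 FPKM, and came just inside 2-fold under quantile normalisation, with a log2 ratio of -0.95. Nuclear receptors of the NR4A family moved alike, with NR4A1 at 23.0 and 3.89 FPKM and NR4A2 at 21.3 and 5.44 FPKM. CCN1, a secreted matrix protein listed here among YAP targets, had 54.9 and 4.50 FPKM, a log2 ratio of -3.34. Its relative CCN2 was at 4.18 and 1.23 FPKM. The YAP list did not move as a group. Of its 24 measured members, 2 were 2-fold lower (8.33%, against 2.08% of all genes) and 0 higher. Ratios were above 0 for 12 and below 0 for 12, with a median of -0.01. SRF, the transcription factor through which serum acts on many immediate early genes, differed little, at 11.8 and 11.4 FPKM. ATF3 set the transfected libraries apart from each other: it was at 26.9 FPKM untransfected, 6.20 with control siRNA and 40.9 with EHMT2 siRNA.

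The promoters of EGR1 and EGR2 are printed because they carry the CArG box, the element SRF binds, next to strongly lowered genes. RefSeq promoter windows (GRCh38.p14, 250 bases before to 50 after each start, any start of a gene, both strands) were at hand for 9198 of the 11631 genes. A CArG box was found for 3 of 19 immediate early genes with a window (EGR1, EGR2 and SRF), against 1.49% of all measured genes and 1.29% of all 35116 windows. No match stood in the window of FOS, and bases more than 250 before a start were not searched. The EGR1 stretch is chr5:138465229-138465478 on the plus strand and the EGR2 stretch chr10:62816367-62816616 on the minus strand, each the 250 bases before a start. They run 5′ to 3′ toward the start, with the CArG boxes in capitals, beginning 105 and 83 bases before the start in EGR1 and 71 bases before it in EGR2.
EGR1: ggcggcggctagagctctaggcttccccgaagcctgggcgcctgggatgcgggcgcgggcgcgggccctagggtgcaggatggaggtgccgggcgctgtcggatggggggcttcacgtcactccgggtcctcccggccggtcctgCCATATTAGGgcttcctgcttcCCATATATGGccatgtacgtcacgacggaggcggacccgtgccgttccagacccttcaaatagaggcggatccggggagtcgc
EGR2: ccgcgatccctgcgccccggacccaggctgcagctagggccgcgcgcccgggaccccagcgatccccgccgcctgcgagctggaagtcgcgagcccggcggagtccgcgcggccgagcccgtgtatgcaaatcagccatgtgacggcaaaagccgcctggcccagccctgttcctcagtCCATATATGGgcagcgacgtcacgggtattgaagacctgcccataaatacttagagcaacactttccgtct

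Signals that feed the immediate early response and restrain it also had lower members. Of 19 feedback genes of the ERK MAP kinase pathway, 3 were 2-fold lower (15.8%, against 2.08% of all genes) and 0 higher, and 16 were below 0, with a median log2 ratio of -0.32. DUSP6, an ERK phosphatase, was at 199.5 FPKM untransfected, 61.7 with control siRNA and 29.1 with EHMT2 siRNA. DUSP5, a nuclear ERK phosphatase, was at 70.0, 22.5 and 13.8 FPKM. The third was IER3, counted among the immediate early genes too and just inside 2-fold under quantile normalisation. In the EGF receptor family and its ligands, 2 of 11 genes were 2-fold lower (18.2%, against 2.08%): the ligand AREG, at 346 and 153 FPKM, and the receptor inhibitor ERRFI1, at 321 and 134 FPKM. EREG, another ligand, was at 124 and 71.7 FPKM. The receptor EGFR was at 12.3 and 13.8 FPKM. The ligands and the inhibitor named were lower, while the receptor differed by less than 1.5-fold. Once both libraries had the same FPKM sum, AREG was at a log2 ratio of -0.99, just inside 2-fold. The same comparison in resistant cells gave ERK feedback genes a median of 0.59, with 14 of 19 above 0. Of these 19, 4 were 2-fold higher (against 4.31% of all genes) and 1 lower (against 3.87%). The EGF receptor list had a median of 0.03 there, with 3 of 11 genes 2-fold higher and 1 lower.

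**Figure D3:**
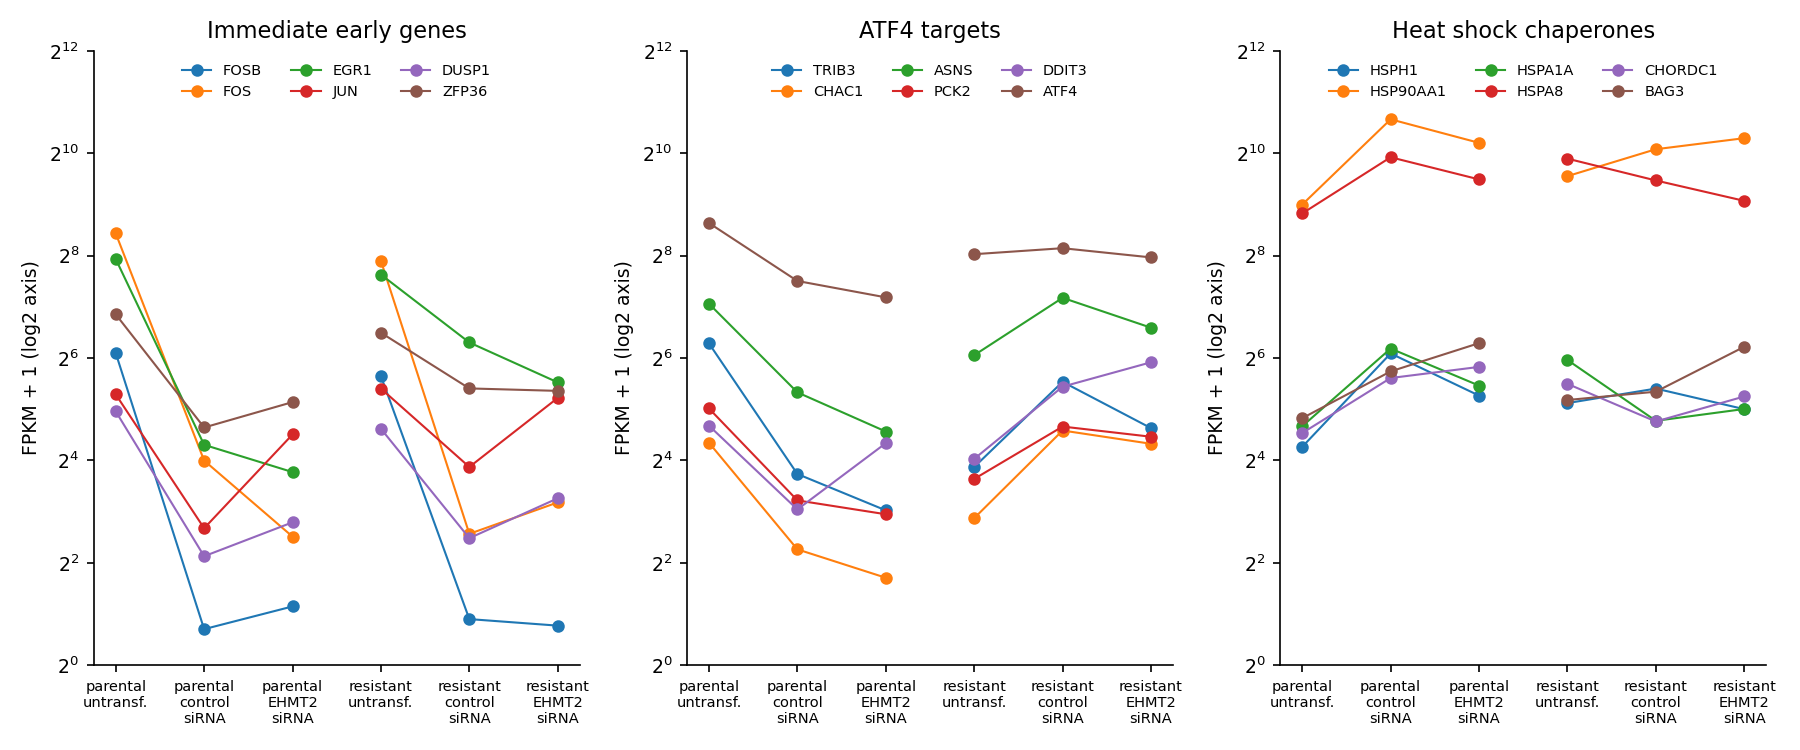
FPKM + 1 on a log2 axis for 6 immediate early genes, 6 ATF4 targets and 6 heat shock chaperones in the 6 libraries; each point is 1 library, and lines join the 3 libraries of a line for the eye. The immediate early genes drawn are highest in the untransfected library of each line, whereas the ATF4 targets are highest untransfected in parental cells but not in resistant cells.

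Genes driven by ATF4, the factor made when amino acids are short or the endoplasmic reticulum is stressed, were lower throughout. All 37 measured members had ratios below 0, 16 of them 2-fold lower (43.2%, against 2.08% of all genes), with a median log2 ratio of -0.94 and a range from -2.55 to -0.21. ATF4 itself was at 397 FPKM untransfected, 181 with control siRNA and 145 with EHMT2 siRNA. Among its regulators and partners, TRIB3, a pseudokinase that restrains ATF4, was at 77.0, 12.3 and 7.15 FPKM, and CEBPG, a dimer partner, at 32.4, 12.2 and 12.7 FPKM. DDIT3, which encodes CHOP, was at 24.6, 7.25 and 19.2 FPKM. The annotation gives DDIT3 39.6% of its exonic bases in common with other genes, MARS among them, which was at 96.3 and 76.2 FPKM. PPP1R15A, which restores translation after eIF2 phosphorylation, was at 82.3 and 15.7 FPKM.

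Amino acid supply genes made up much of the rest. ASNS, asparagine synthetase, was at 133 FPKM untransfected, 39.2 with control siRNA and 22.7 with EHMT2 siRNA. PCK2, the mitochondrial enzyme that makes phosphoenolpyruvate, was at 31.3, 8.32 and 6.73 FPKM. CHAC1, which degrades glutathione, was at 19.3, 3.81 and 2.27 FPKM, a log2 ratio of -2.08. Transporters were lower too, with SLC3A2 at 149.7 and 60.7 FPKM, SLC7A1 at 24.8 and 9.97 FPKM, and the cystine carrier SLC7A11 at 17.6 and 9.22 FPKM. Synthetases that charge transfer RNA spread widely: SARS was at 187 and 58.2 FPKM, but GARS at 115 and 91.2 FPKM and NARS at 80.1 and 69.1 FPKM. Enzymes of serine and one-carbon metabolism lay within 2-fold, among them PHGDH at 67.1 and 50.3 FPKM and MTHFD2 at 102 and 67.0 FPKM. GDF15, a secreted stress hormone, was at 193 and 75.4 FPKM.

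The exact letters TGATGCAA, one form of the element ATF4 binds together with a C/EBP partner, stood in the windows of CHAC1, CEBPG and JDP2, 3 of 25 ATF4 targets with a window, against 0.674% of measured genes and 0.866% of all windows. The CHAC1 stretch, chr15:40953221-40953470 on the plus strand, is shown since CHAC1 has the lowest ratio of the 3. Capitals mark the element, which lies on the opposite strand and begins 209 bases before the start.
CHAC1: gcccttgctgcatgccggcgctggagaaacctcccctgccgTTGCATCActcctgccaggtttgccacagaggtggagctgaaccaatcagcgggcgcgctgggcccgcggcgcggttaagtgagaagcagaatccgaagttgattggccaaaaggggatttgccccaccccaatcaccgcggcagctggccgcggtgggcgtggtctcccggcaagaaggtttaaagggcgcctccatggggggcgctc

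Genes of the unfolded protein response, here endoplasmic reticulum chaperones and targets of the factors XBP1 or ATF6, did not move as a group. Of 24 members, 1 was 2-fold higher (4.17%, against 0.954% of all genes), 0 were lower, and the median log2 ratio was -0.12, or 0.05 at equal FPKM sums. HSPA5, the chaperone BiP, was at 308 FPKM untransfected and 173 with control siRNA, whereas CALR, another chaperone of the endoplasmic reticulum, was at 300.4 and 473 FPKM. SDF2L1, a BiP cofactor, was at 14.5 and 30.8 FPKM.

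Heat shock chaperones were higher. Of 22 measured genes, 9 were 2-fold higher with control siRNA (40.9%, against 0.954% of all genes) and 0 lower, 21 had ratios above 0, and the median log2 ratio was 0.94. HSPH1, an HSP110 nucleotide exchange factor, was at 18.2 FPKM untransfected, 67.1 with control siRNA and 37.5 with EHMT2 siRNA, a log2 ratio of 1.82. HSP90AA1, the inducible HSP90, was at 509.8 FPKM untransfected, 1619 with control siRNA and 1177 with EHMT2 siRNA. Its constitutive relative HSP90AB1 was at 755 and 1458 FPKM. The HSP70 genes HSPA1A and HSPA1B, which are almost the same in sequence and may exchange reads, were at 24.4 and 71.8 FPKM and at 38.6 and 112 FPKM. HSPA8, the constitutive HSP70, was at 452 and 968 FPKM.

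Cofactors and mitochondrial chaperones shared the direction. AHSA1, an activator of the HSP90 ATPase, was at 77.5 FPKM untransfected and 170.2 with control siRNA, and CHORDC1, an HSP90 cochaperone, at 22.2 and 47.8 FPKM. HSPD1 and HSPE1, the mitochondrial chaperonin and its lid, were at 333 and 662 FPKM and at 205 and 435 FPKM. HSPB1, a small heat shock protein, was at 167 and 350 FPKM. HSF1, the factor that drives these genes, was at 38.2 and 39.1 FPKM, a log2 ratio of 0.03 that became -0.0069 when ratios were centred on their median. HSPA9, the mitochondrial HSP70, was at 201 and 182 FPKM, with a log2 ratio of -0.14, or 0.04 at equal FPKM sums. The DNAJ cochaperones differed less, with DNAJB1 at 62.2 and 79.5 FPKM and DNAJA1 at 57.7 and 88.4 FPKM.

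Heat shock elements are arrays of the pentamer that HSF1 binds. A full element of GAA, TTC and GAA, each parted by NN, was found in the windows of 7 of 20 heat shock genes, against 0.511% of measured genes and 0.490% of all windows. The shorter GAANNTTC, which is contained in the longer one, was found in 11 of 20, against 6.27% of measured genes and 6.77% of all windows. HSP90AA1 (chr14:102087045-102087294, minus strand) and HSPA1A (chr6:31815293-31815542, plus strand) are shown as 2 of the highest of these genes. In capitals stand the long array of HSP90AA1, on the opposite strand from 88 bases before the start, and the short one of HSPA1A, from 106 bases before it.
HSP90AA1: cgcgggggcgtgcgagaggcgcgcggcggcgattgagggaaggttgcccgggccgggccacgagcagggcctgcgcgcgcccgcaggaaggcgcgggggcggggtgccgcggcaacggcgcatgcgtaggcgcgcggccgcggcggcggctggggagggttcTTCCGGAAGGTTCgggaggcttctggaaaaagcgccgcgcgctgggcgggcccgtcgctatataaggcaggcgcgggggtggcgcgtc
HSPA1A: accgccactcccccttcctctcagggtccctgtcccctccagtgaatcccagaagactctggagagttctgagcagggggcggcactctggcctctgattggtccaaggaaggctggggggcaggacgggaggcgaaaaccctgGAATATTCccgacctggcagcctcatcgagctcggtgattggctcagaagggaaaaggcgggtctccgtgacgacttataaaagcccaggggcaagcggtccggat

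Genes of DNA replication were mostly higher by a moderate amount, with log2 ratios from -0.21 to 1.15. Of 47 members, 45 had ratios above 0, 4 were 2-fold higher (8.51%, against 0.954% of all genes) and 0 lower, with a median log2 ratio of 0.63. At the origin, ORC6, a subunit of the origin recognition complex, was at 10.1 FPKM untransfected, 22.3 with control siRNA and 14.6 with EHMT2 siRNA. Of the helicase that unwinds DNA, MCM4 was at 28.5, 61.4 and 26.8 FPKM and MCM2 at 23.2, 43.8 and 14.1 FPKM. CLSPN, which relays replication stress to CHK1, was at 3.76, 9.34 and 5.73 FPKM. Of the polymerases, POLE was at 11.7 and 23.1 FPKM and POLA2 at 1.09 and 3.65 FPKM, both low levels. In the EHMT2 siRNA library MCM4 lay close to its untransfected level and MCM2 below it. In bulk RNA, fewer cells in a state and less message per cell cannot be told apart.

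Genes of mitosis followed the same course. Of 49 members, 47 were above 0, 6 were 2-fold higher (12.2%, against 0.954% of all genes) and 0 lower, and the median log2 ratio was 0.57. CDC25A, a phosphatase that activates cyclin-dependent kinases and stands in the G1/S list as well, was at 3.88 FPKM untransfected, 12.7 with control siRNA and 4.54 with EHMT2 siRNA. ANLN, a scaffold of the cleavage furrow, was at 21.3, 57.3 and 62.2 FPKM. MKI67, the proliferation marker, was at 26.2, 59.7 and 37.4 FPKM, and CCNA2, cyclin A, at 15.1, 31.9 and 16.2 FPKM. CKS1B, a small kinase subunit, was at 75.5 and 50.7 FPKM, the lowest ratio of the list. In the G1/S list the median was 0.37 over 26 genes, with 3 2-fold higher (11.5%, against 0.954% of all genes) and 0 lower. CCNE1, cyclin E, was at 12.7 and 26.3 FPKM, and CDK6 at 4.96 and 11.9 FPKM. CDKN2C, an inhibitor of cyclin-dependent kinases, had a log2 ratio of 1.41, at less than 5 FPKM in both libraries. CCND1, cyclin D, was at 114 and 94.6 FPKM. Homologous recombination and Fanconi genes had 27 of 36 members above 0, a median log2 ratio of 0.44 and no 2-fold difference in either direction. FANCG was their highest, at 10.3 and 21.1 FPKM. FANCG and RAD54B passed 2-fold at equal FPKM sums, with log2 ratios of 1.13 and 1.02, and with a pseudocount of 0.1. Over the 4 lists together, which share some members, 139 of 157 genes were above 0 and 12 were 2-fold higher, a share of 7.64% against 0.954%.

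An E2F element, searched as TTTCCCGC or TTTGGCGC, stood in the windows of 18 of 40 replication genes, against 4.82% of measured genes and 2.27% of all windows. It stood in 3 of 41 mitosis genes (7.32%) and in 3.95% of all 2-fold higher genes with a window. LIG1, the ligase that joins Okazaki fragments, had 12.5 FPKM untransfected and 23.7 with control siRNA. Its 250 bases before the start, chr19:48170345-48170594 on the minus strand, are shown as an example, with the element in capitals from 114 bases before the start.
LIG1: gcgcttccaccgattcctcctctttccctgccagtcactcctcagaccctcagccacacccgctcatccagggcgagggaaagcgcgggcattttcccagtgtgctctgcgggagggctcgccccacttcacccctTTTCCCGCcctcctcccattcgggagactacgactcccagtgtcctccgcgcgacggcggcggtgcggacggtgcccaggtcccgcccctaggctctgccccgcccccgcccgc

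Nucleotide supply had no member past 2-fold among 23, with a median log2 ratio of 0.24. The highest was TYMS, thymidylate synthase and the target of 5-fluorouracil metabolites, at 46.1 FPKM untransfected, 92.4 with control siRNA and 42.1 with EHMT2 siRNA. TYMS had a log2 ratio of 0.99, just inside 2-fold, and has 46.6% of its exonic bases in common with ENOSF1 and TYMSOS. RRM1 and RRM2, the subunits of ribonucleotide reductase, were at 23.1 and 45.2 FPKM and at 41.0 and 78.1 FPKM. At equal FPKM sums TYMS and RRM1 passed 2-fold, with log2 ratios of 1.17 and 1.11, and TYMS also passed it with a pseudocount of 0.1. Among 14 genes that activate, carry or degrade fluoropyrimidines, 1 was 2-fold lower (7.14%, against 2.08% of all genes) and the median was -0.07, or 0.11 at equal FPKM sums. That gene was UPP1, uridine phosphorylase, at 17.3 and 5.28 FPKM. TYMP, thymidine phosphorylase, was at 26.3 and 15.2 FPKM, and TK1, thymidine kinase, at 55.3 and 85.5 FPKM.

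Ribosomal protein messages were lower together by a modest amount. Of 78 members, 75 had ratios below 0, 2 were 2-fold lower and 0 higher (2.56% lower, against 2.08% of all genes), and the median log2 ratio was -0.56. RPS18 was at 2143 FPKM untransfected and 948 with control siRNA, and RPS3A at 1533 and 722 FPKM. Both came inside 2-fold at equal FPKM sums (-0.99 for RPS18 and -0.90 for RPS3A) and under quantile normalisation (-0.95 and -0.70). RPS26, at 188 and 227 FPKM, had the highest ratio. Ribosomal proteins made up 15.9% of all FPKM untransfected and 12.1% with control siRNA. The 13 messages of mitochondrial DNA, which made up 26.2% and 22.0%, had 11 members below 0 and none past 2-fold. MT-CO3, a cytochrome oxidase subunit, was at 15286 and 9869.6 FPKM, whereas MT-ND5 and MT-ND6, complex I subunits, were at 2755 and 3875 FPKM and at 2696 and 3889.8 FPKM. The nuclear genes of the respiratory chain had a median log2 ratio of 0.14 over 74 members, with none past 2-fold as deposited and ATP5MF, an ATP synthase subunit, at 1.04 at equal FPKM sums. These abundant classes weigh on the FPKM sum, which is the quantity on which the split between higher and lower genes depended.

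Protein breakdown and RNA processing leaned to higher levels. In the proteasome, 31 of 34 genes had ratios above 0, 1 was 2-fold higher (2.94%, against 0.954% of all genes) and the median was 0.49. PSMD1, a base subunit of the regulatory particle, was at 27.9 and 58.0 FPKM, and PSMD2, another, at 60.0 and 107 FPKM. PSMD1 came just inside 2-fold with centred ratios (0.99), and PSMD2 just passed it at equal FPKM sums (1.01). Of 50 splicing genes, 40 were above 0 (against 6267 of all 11631 genes), with none past 2-fold and a median of 0.29. HNRNPA2B1, an RNA-binding protein, was at 345 and 652 FPKM, and SRSF1, a splicing factor, at 47.2 and 86.8 FPKM. At equal FPKM sums HNRNPA2B1 and SRSF4 passed 2-fold, with log2 ratios of 1.10 and 1.06.

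The machinery that handles siRNA leaned to higher levels in parental cells but not in resistant cells. None of 18 genes of RNA interference was past 2-fold, where 0.954% of all genes were higher and 2.08% lower. Of the 18, 14 were above 0, and the median log2 ratio was 0.33, against 0.04 for all genes. DICER1, which cuts double-stranded precursors, was at 4.04 FPKM untransfected, 7.86 with control siRNA and 6.40 with EHMT2 siRNA. AGO2, the slicing Argonaute that holds the guide strand, was at 9.31, 13.9 and 23.8 FPKM. TNRC6A, the scaffold that recruits decay factors, was at 6.78, 11.9 and 18.8 FPKM, and MOV10, a helicase of the same complexes, at 18.6, 32.2 and 17.6 FPKM. AGO2 and TNRC6A were thus higher still with EHMT2 siRNA, and MOV10 was not. For control siRNA over untransfected in resistant cells, the median of the 18 genes was -0.14, with 12 below 0. There 2 were 2-fold lower (against 3.87% of all genes) and 0 higher.

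Interferon-stimulated genes were not higher as a group. Of 30 measured, 0 were 2-fold higher and 3 were 2-fold lower (10%, against 2.08% of all genes), with a median log2 ratio of -0.23. IFIT1, which binds foreign RNA ends, was at 1.74 FPKM untransfected and 2.30 with control siRNA, near the lower limit of measurement. BST2, a tether of enveloped viruses, was at 5.69 and 0.944 FPKM, PLSCR1, a scramblase, at 23.8 and 9.15 FPKM, and ISG20, an exonuclease, at 3.52 and 1.02 FPKM. Among 15 sensors and adaptors of foreign RNA and DNA, 1 was 2-fold lower (6.67%, against 2.08% of all genes) and 0 were higher. Of the 15, 10 had ratios above 0, and the median log2 ratio was 0.15. The lower gene was IRF7, the factor that amplifies interferon, at 8.76 FPKM untransfected, 1.80 with control siRNA and 7.26 with EHMT2 siRNA. The sensors EIF2AK2 and OAS3 were at 7.83 and 11.7 FPKM and at 7.20 and 10.4 FPKM, and DDX58, which encodes RIG-I, at 3.81 and 3.15 FPKM. In the NF-kB list, 2 of 18 genes were 2-fold lower (11.1%, against 2.08%) and 0 were higher. The 2 were the chemokine CXCL8, at 3.27 and 0.417 FPKM, and IER3, which came inside 2-fold under quantile normalisation.

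Lipid and uptake genes, of interest for a lipid carrier, shifted slightly. Of 25 cholesterol genes, 19 were above 0, 2 were 2-fold higher (8%, against 0.954% of all genes) and 0 lower, with a median of 0.26. ACAT2, an acetyl-CoA acetyltransferase, was at 3.87 and 8.87 FPKM, and INSIG1, the sterol-sensitive brake on SREBP, at 5.45 and 11.9 FPKM. Centring the ratios on their median put both just inside 2-fold, at 0.98 for ACAT2 and 0.96 for INSIG1. HMGCS1, an early enzyme of the pathway, was at 9.24 and 18.4 FPKM, with a log2 ratio of 0.92 that passed 2-fold at equal FPKM sums (1.08). In fatty acid synthesis, FASN was at 50.2 and 99.8 FPKM while ACSL5, which activates long-chain fatty acids, was at 81.7 and 26.2 FPKM. None of 25 endocytosis genes and none of 28 lysosomal genes was past 2-fold, with medians of 0.29 and 0.13. EPN1 and CAV2, an endocytic adaptor and a caveolin, were at 16.1 and 29.2 FPKM and at 30.1 and 53.2 FPKM.

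Cell surface and metal-handling genes held further lower members. Of 31 adhesion and junction genes, 4 were 2-fold lower (12.9%, against 2.08% of all genes) and 0 higher, and the list median was -0.09, or 0.06 at equal FPKM sums. The claudins CLDN7 and CLDN4 were at 57.8 and 22.5 FPKM and at 74.9 and 32.2 FPKM, and E-cadherin, encoded by CDH1, at 19.9 and 8.66 FPKM. CLDN7, CLDN4 and CDH1 are among the epithelial markers too. S100A14, a calcium-binding protein of epithelia, was at 107 FPKM untransfected, 24.1 with control siRNA and 18.8 with EHMT2 siRNA. Of 8 measured metallothionein and zinc transporter genes, 3 were 2-fold lower (37.5%, against 2.08% of all genes) and 0 higher. Their median log2 ratio was -0.38, and 2 were above 0. The 3 were the zinc-binding metallothioneins MT2A, MT1E and MT1X, at 747 and 250.5 FPKM, at 212 and 65.3 FPKM and at 42.3 and 19.8 FPKM. The metallothionein copies resemble each other, so reads may be divided among them.

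Targets of p53 were spread around 0, with 3 of 33 genes 2-fold lower (9.09%, against 2.08% of all genes), 0 higher and a median log2 ratio of -0.01, or 0.16 at equal FPKM sums. CDKN1A, the p21 inhibitor of cyclin-dependent kinases, was at 74.4 FPKM untransfected and 85.5 with control siRNA, and MDM2, the ligase that degrades p53, at 8.92 and 13.997 FPKM. The lower genes were GDF15, SESN2 and SERTAD1, of which GDF15 and SESN2 are in the ATF4 list as well. SERTAD1 came inside 2-fold at equal FPKM sums, with a log2 ratio of -0.97. Of 25 genes of H3K9 methylation, none was past 2-fold and the median was 0.27. EHMT1, the partner of EHMT2, was highest there, at 12.8 and 21.5 FPKM.

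Some of the largest ratios belong to gene models that overlap a neighbour. Of the measured genes, 9.17% have 25% or more of their exonic bases in common with another gene, against 27.0% of the 111 higher genes and 20.7% of the 242 lower genes. Among the 15 highest and the 15 lowest genes with 5 FPKM or more in either library, 6 and 6 were of this kind. On chromosome 19 (GENCODE 29, GRCh38), AC007192.1 at 18153158 to 18178117 overlaps PIK3R2, which encodes a phosphoinositide 3-kinase subunit, and IFI30, a lysosomal reductase. AC007192.1 was at 24.8 FPKM untransfected and 0 with control siRNA, whereas PIK3R2 was at 1.94 and 33.6 FPKM and IFI30 at 12.2 and 41.3 FPKM. With EHMT2 siRNA the 3 models had 5.74, 5.07 and 11.05 FPKM. In the resistant cells AC007192.1 was at 26.9 and 1.33 FPKM and PIK3R2 at 0.581 and 31.8 FPKM, while IFI30 was at 15.5 and 19.7 FPKM, a log2 ratio of 0.33. AC007192.1 and PIK3R2 thus lay in opposite directions in both lines, and how the quantification divided reads among them was not tested.

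Similar cases stood elsewhere. SENP3-EIF4A1, a read-through model, was at 2.13 and 37.0 FPKM, while EIF4A1, the translation helicase it contains, was at 409.7 and 360.1 FPKM and SENP3 at 22.8 and 17.8 FPKM. TNFRSF6B, a decoy receptor wholly covered by RTEL1-TNFRSF6B and ARFRP1, was at 67.1 and 1.10 FPKM, but in the resistant cells at 22.0 and 71.4 FPKM. Without this kind of overlap, GTF2H5, a TFIIH subunit, was at 2.42 FPKM untransfected, 9.96 with control siRNA and 3.25 with EHMT2 siRNA, and ANKRD52, a phosphatase 6 subunit, at 6.54, 24.1 and 21.1 FPKM.

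Transcript structure moved with the ratio to a small extent. In 4 equal groups by exon number the median log2 ratio went from -0.07 for the fewest exons through -0.01 and 0.06 to 0.17 for the most, and the 2-fold lower genes numbered 106, 68, 42 and 26. In 4 groups by transcript length the medians were -0.05, 0.01, 0.04 and 0.13. Without ribosomal protein and mitochondrial DNA genes they were -0.04, 0.02, 0.05 and 0.13. The group with the most exons had a median of -0.12 in the resistant pair. Medians over the 23 nuclear chromosomes with measured genes ranged from -0.01 to 0.07. Immediate early and ribosomal protein genes tend to have short transcripts, and the part of transcript structure in their ratios was not tested.

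The resistant cells offer a second pair with the same labels and no library in common with the parental pair. In it, 503 of 11666 genes were 2-fold higher (4.31%) and 451 lower (3.87%). Of the 111 genes higher in parental cells, 14 were 2-fold higher in the resistant pair too, which is 12.6% of the parental and 2.78% of the resistant list, and 9 were 2-fold lower. Of the 242 lower genes, 35 were lower in both, 14.5% of the parental and 7.76% of the resistant list, and 47 were 2-fold higher in the resistant pair. Over the genes measured in parental cells, 4.14% were 2-fold higher and 3.40% lower in the resistant pair. Across genes, which are not independent, Pearson's r between the ratios of the pairs was -0.01 and Spearman's rho was -0.06. With 1 library a side the difference between the pairs was not tested.

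Shared across the lines were the globins and the top of the immediate early response. FOSB was at 49.2 FPKM untransfected and 0.870 with control siRNA in resistant cells, and FOS at 237 and 4.93 FPKM. EGR1 was at 197 and 78.0 FPKM and DUSP1 at 23.6 and 4.59 FPKM. Over the 26 immediate early genes, 7 were 2-fold lower in the resistant pair (against 3.87% of all its genes) and the median was -0.36. The other genes with the lowest ratios in both lines included S100A14, at 57.3 and 15.7 FPKM in resistant cells, and IRF7, at 22.2 and 3.68 FPKM. CASTOR1, an arginine sensor upstream of mTORC1, was among the highest in both, at 1.35 and 8.30 FPKM in parental and 2.35 and 12.1 FPKM in resistant cells. It has 46.0% of its exonic bases in common with AC004997.1.

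**Figure D4:**
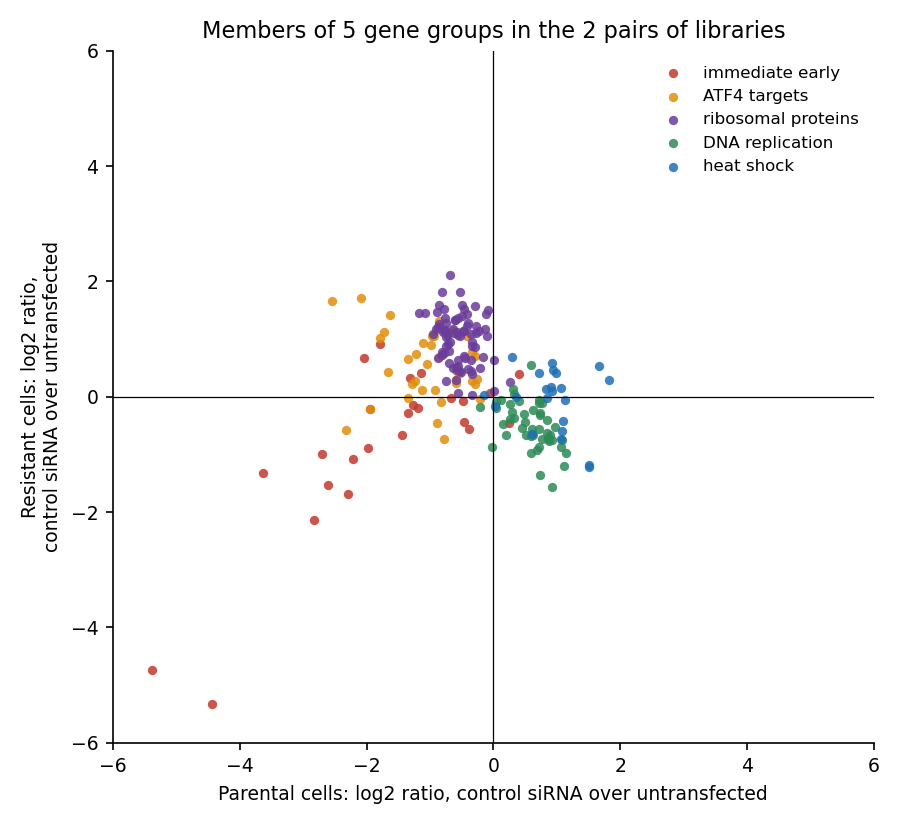
Log2 ratio of control siRNA over untransfected in parental cells (horizontal) and in 5-fluorouracil resistant cells (vertical) for members of 5 gene groups, 1 point per gene. FOSB and FOS lie far down at the left, ATF4 targets and ribosomal proteins mostly at the upper left, and replication genes mostly at the lower right.

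Several groups had opposite medians in the lines. Of the 37 ATF4 targets, 30 had ratios above 0 in resistant cells, 11 were 2-fold higher (against 4.31% of all genes) and 0 lower, with a median of 0.58 against -0.94 in parental cells. TRIB3 was at 13.6 FPKM untransfected and 45.4 with control siRNA there, and ASNS at 65.5 and 144 FPKM. All 78 ribosomal protein genes were above 0 in the resistant pair, 45 of them 2-fold higher, with a median of 1.09 against -0.56. Replication genes had a median of -0.54 against 0.63, with 44 of 47 below 0, and mitosis genes -0.38 against 0.57, with 45 of 49 below 0. MCM2 was at 39.0 FPKM untransfected and 22.6 with control siRNA in resistant cells. Heat shock genes had a median of 0.07, with HSPA1A at 61.4 and 26.4 FPKM but HSP90AA1 at 749.6 and 1079 FPKM.

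By level, the parental control siRNA library lay nearer to the resistant untransfected library in some of these groups. The 78 ribosomal protein genes summed to 70817 FPKM in parental untransfected and 72051 in resistant control siRNA cells, but to 47628 in parental control siRNA and 36164 in resistant untransfected cells. The replication genes summed to 818 and 895 FPKM in the first 2 of these libraries and to 1254 and 1304 FPKM in the other 2. Immediate early genes did not follow that order: their sum was 2237 FPKM in parental and 1866 in resistant untransfected cells, against 696 and 1199 with control siRNA. Interferon-stimulated genes differed in yet another way, with a median of -0.23 in parental and -1.21 in resistant cells. IFIT1 was at 34.4 FPKM in resistant untransfected cells and 1.74 with control siRNA, and at 1.74 and 2.30 in the parental pair.

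**Figure D5:**
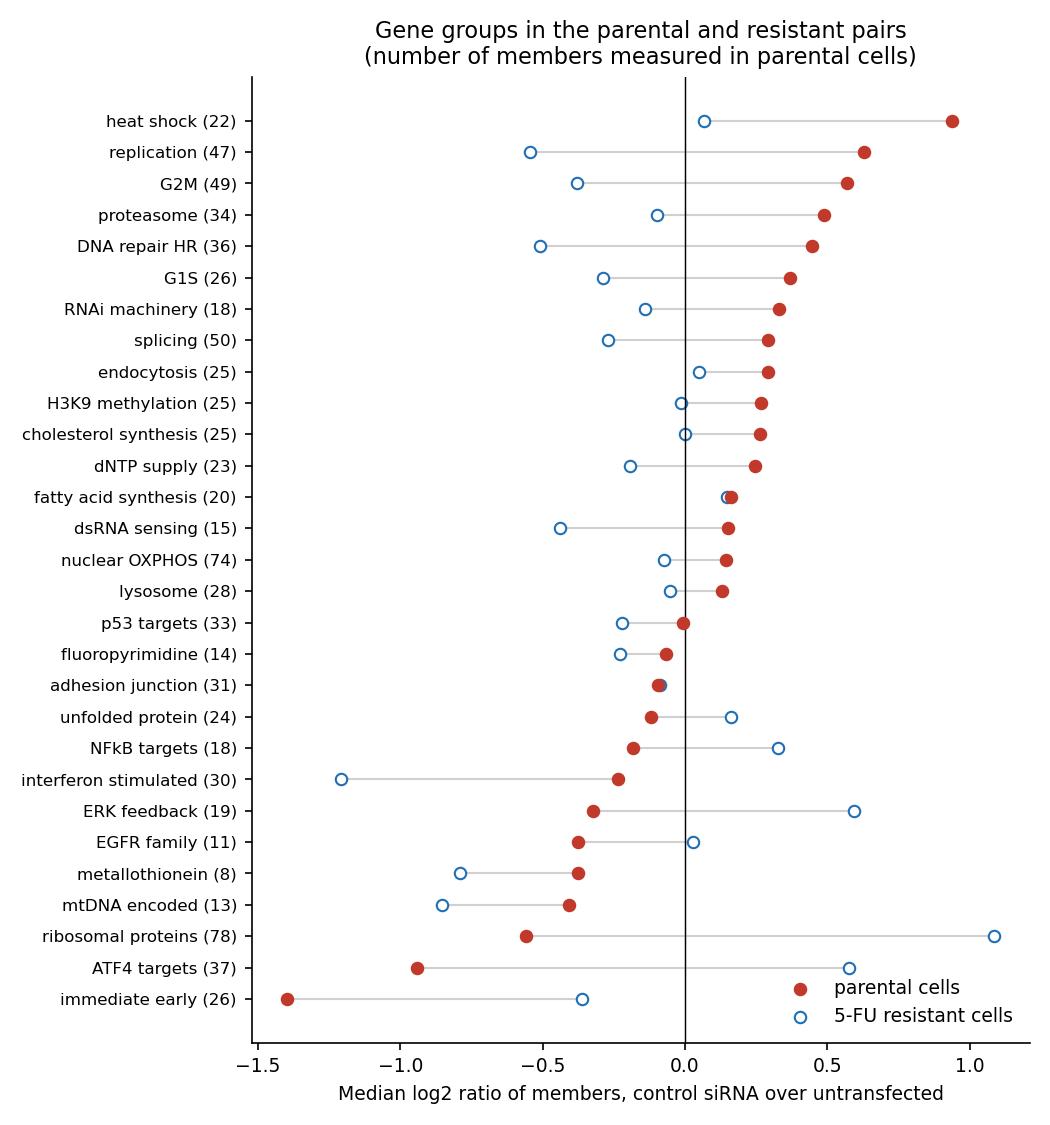
Median log2 ratio of control siRNA over untransfected for 29 gene groups in parental cells (filled) and resistant cells (open), sorted by the parental value, with the number of members measured in parental cells in parentheses. Heat shock genes are at the top with 0.94 and immediate early genes at the bottom with -1.40, and the medians of replication, mitosis, ribosomal protein and ATF4 target genes lie on opposite sides of 0 in the lines.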

How the data were processed

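RNA was sequenced in 6 libraries of HCT116 cells, 1 per group, prepared from total RNA (TruSeq RNA kit, version 2, per the labels' protocols). The series text speaks of replicates; any others were not analysed here. Per the submitters' processing notes, the tools were HISAT2 2.2.1, StringTie 2.1.1, cutadapt 4.9 and FastQC 0.12.1, with build GRCh38. The sources used here give neither annotation release nor strand. The authors deposited FPKM per gene, 1 table per library with 19957 rows. They show no steps of whole reads, so depth and counting error are unknown.

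Rows were joined by gene; a repeated symbol was represented by its row of highest mean FPKM, leaving 19942 symbols, of which 19887 had an entry in GENCODE 29, the source of coordinates and shared exonic bases (overlapping and antisense genes cannot be told apart without strand). Ratios are log2 after a pseudocount of 1, for genes at 1 FPKM or more in either library, and 2-fold or more was counted. With 1 library a group there is no test. Counting was tested on simulated data. The comparison, the 59 gene lists (58 with measured members) and the named genes were chosen with earlier results of these data known; 29 lists are described. Named genes are the 15 highest and 15 lowest with 5 FPKM or more in either library, the highest and lowest members of each list with further members by role, the 8 highest and 8 lowest in both pairs, and EHMT2, AGO2, DICER1, TYMS, DDIT3, IFIT1, CDKN1A and HMGCS1. Some genes that the rule takes are not reported here, while counts and medians include them. Promoter windows are from RefSeq, GRCh38.p14. Python 3.11.15, numpy 2.4.6 and pandas 2.3.3 were used. Alternatives changed the pseudocount, the filter, the scaling, the fold and the genes counted.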

Additional observations from a re-analysis of the deposited data

Results flagged for a closer look

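The following results had opposite signs in the parental and the resistant pair of libraries. With 1 library a side, none of these differences was tested. Median log2 ratios of control siRNA over untransfected, parental first, were -0.94 and 0.58 for ATF4 targets, -0.56 and 1.09 for ribosomal proteins, 0.29 and -0.27 for splicing genes, and 0.49 and -0.10 for the proteasome. For cell division they were 0.63 and -0.54 for replication, 0.57 and -0.38 for mitosis, and 0.44 and -0.51 for homologous recombination. Of single genes, TRIB3 had log2 ratios of -2.55 and 1.66 and DDIT3 -1.64 and 1.41. TNFRSF6B had -5.02 and 1.66, INO80B-WBP1 -3.16 and 1.84, and PTGES3L-AARSD1 -2.64 and 1.05. The last 3 are gene models that lie over other genes.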

How the results depend on the processing

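No paired analysis was possible because the groups have replicate number 1 only. Genes 2-fold higher with control siRNA (111) and genes 2-fold lower with control siRNA (242) became 268 and 441 with a pseudocount of 0.1, 241 and 158 at equal FPKM sums, 808 and 955 at 1.5-fold, and 7 and 27 at 4-fold; under the other 7 settings both stayed within 1.5 times. Of 29 list medians under 6 settings, 168 values stayed within 0.26 of the main value with the same sign. Metallothionein genes moved to -1.05 at an FPKM minimum of 5, and mitochondrial DNA genes to 0 under quantile normalisation, which fixes the most abundant genes. Equal FPKM sums reversed the medians of unfolded protein (0.051), fluoropyrimidine (0.11), p53 target (0.16) and adhesion genes (0.063). They also reversed PAN2 (0.023), HSPA9 (0.042), PSMD10 (0.10) and GINS3 (0.13). HSF1 became -0.0069 and FAU -0.020 with median-centred ratios, and HSF1 -0.0023 under quantile normalisation. Of the other values of named genes, 846 kept their side of 2-fold, 16 crossed it outward and 12 inward. The cause of these shifts was not tested. Depth limits all low values, but is unknown.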
